A study of Danio rerio with 6 samples.

Results

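The 34 genes described here encode the enzymes of glycolysis and lactate dehydrogenase in zebrafish, with the paralogs of each enzyme, and were found by their gene symbol among 27335 genes of the deposited expression table. All 34 were found once and all 34 passed the filter on low values, out of 21843 genes that did. RNA came from whole larvae at 5 days post-fertilization (dpf), as 3 pools of 25 wild-type larvae (taz+/+) and 3 pools of 25 maternal zygotic (MZ) *tafazzin* mutant larvae (taz E3/E3), with 1 library per pool. The mutants carry a single-base deletion with a frameshift in the gene of the cardiolipin transacylase Tafazzin, made with CRISPR/Cas9, and lack the wild-type transcript from both mother and zygote. The study rests on this allele, and loss of the protein was not shown because no antibody detected it. According to the methods all pools shared a clutch, but MZ larvae are elsewhere described as the progeny of mutant parents and controls as that of wild-type ones. Parental cross and genotype therefore cannot be told apart. A value stands for all tissues of 25 animals together, so more cells of a tissue and more RNA per cell cannot be told apart either.

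Glycolysis splits glucose into pyruvate in the cytosol and yields ATP without oxygen, and lactate dehydrogenase turns pyruvate into lactate, which restores the NAD+ that the pathway uses. Hexokinase, phosphofructokinase and pyruvate kinase catalyze the steps that are nearly irreversible and carry most of the regulation. In mammals several of these enzymes exist in forms typical of muscle (PFKM, PGAM2, ENO3, PKM, LDHA, aldolase A, hexokinase 2), of brain (ENO2, aldolase C, hexokinase 1, PFKP) or of liver (glucokinase, PFKL, PKLR). Many of them exist in zebrafish as a pair of copies from the genome duplication of teleost fish, marked a and b. The members were grouped by the tissue type of the mammalian ortholog into 10 of muscle type, 6 of brain type, 4 of liver type and 14 of broad or other type. These names describe the ortholog, and the tissue in which a fish paralog is transcribed was not measured here.

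Expression is given in FPKM, a number of sequenced fragments scaled to the length of the gene and to the fragments of the library, so levels of different genes can be compared. The sources state no read number per pool, and no counting error was set. FPKM summed over all genes to 512587 to 540974 in the wild-type pools and to 501725 to 522531 in the mutant pools. Genotypes were compared with limma on log2(FPKM + 1), with Benjamini-Hochberg adjustment over all genes tested, and a gene is said to have passed, risen or fallen at an adjusted p under 0.05. Fold changes on that scale understate the change of genes with low FPKM. Pools carry the numbers 0 to 2 of the deposited columns. On the first principal component of all genes, wild-type pool 2 lay at 10.5, between the other wild-type pools at 29 and 32 and the mutant pools at -35.2 to -16.4. The *tafazzin* transcript, listed under its older symbol *taz*, was at 12.3, 12 and 8.53 FPKM in wild-type and 6.09, 4.58 and 3.84 FPKM in mutant pools. It was lower in mutants (log2 fold change -1.04 ± 0.19 SE, limma adjusted p = 0.0468), and of the single pools dropped in turn it passed only without wild-type pool 2. With all pools it passed in only 2 of the other settings of processing (limma adjusted p = 0.0246 to 0.0996, log2 fold change -1.17 to -1.04). Each of the marker lists of larval tissues, which cover muscle, heart, neurons, glia, retina, lens, liver, pancreas, intestine, blood and skin, was detected.

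In MZ *tafazzin* mutants 2 of the 34 glycolysis genes rose, the aldolase gene *aldoaa* and the pyruvate kinase gene *pkmb*, and none fell, where 0.696% of all genes tested rose and 0.215% fell. The other 32 did not pass. A positive log2 fold change was found for 29 members (50.4% of all genes tested), and an unadjusted p under 0.05 from limma for 17 higher and no lower member (9.88% and 6.4% of all genes tested). The mutant pools lay wholly above the wild-type pools for 18 members and wholly below them for none, against 11.9% and 10.5% of all genes tested. The positive and the wholly higher members include *eno4*, with a mean of 0.473 FPKM in wild-type and 0.860 FPKM in mutant pools. It passed the filter of 0.5 FPKM only through its mutant pools, so its place in these counts is no support for a difference. The median log2 fold change was 0.25 over the members and 0.00 over all genes tested. Without wild-type pool 2 the pools did not overlap for 22 higher members and 1 lower member, *gapdh* (20.7% and 17.5% of all genes tested), and *hk2* passed with *aldoaa* (1.8% of all genes tested were then higher) while *pkmb* did not.

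**Figure D1:**
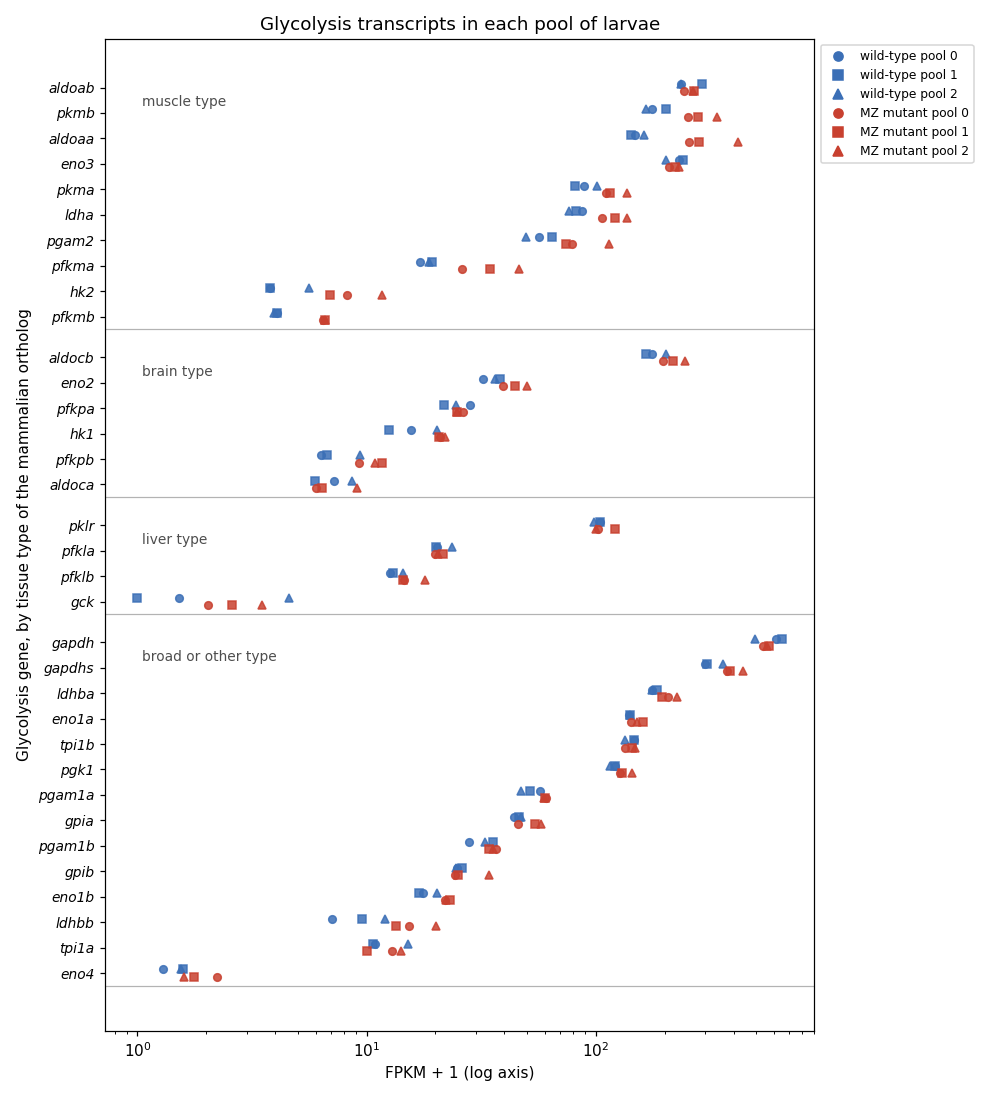
FPKM + 1 on a log axis for each of the 34 glycolysis genes in each pool, with wild-type pools in blue, MZ *tafazzin* mutant pools in red, and circles, squares and triangles for pools 0, 1 and 2. The genes span from below 1 FPKM for *eno4* to 652 FPKM for *gapdh*, and in the muscle type all mutant pools lie to the right of all wild-type pools for 8 of 10 genes.

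The wild-type level differed widely between the enzymes of the pathway. The most abundant member was *gapdh*, which encodes the glyceraldehyde-3-phosphate dehydrogenase that makes the NADH of glycolysis, at 615, 652 and 496 FPKM in wild-type larvae. Its paralog *gapdhs* followed at 299, 305 and 357 FPKM. The aldolase *aldoab*, at 235, 289 and 236 FPKM, and the enolase *eno3*, at 229.7, 239 and 201 FPKM, came next and did not differ beyond their spread. The scarcest members were *gck*, glucokinase, at 0.516, 0 and 3.57 FPKM and *eno4*, whose mammalian ortholog acts in sperm, at 0.291, 0.579 and 0.549 FPKM. Transcripts of the 3 hexokinase genes in the list (*hk1*, *hk2* and *gck*), at the entry of the pathway, summed to 18, 14.3 and 27.4 FPKM in wild-type and 28.2, 27.3 and 34.3 FPKM in mutant pools. Hexokinase genes outside the list are not in this sum. Those of GAPDH summed to 914, 957 and 853 FPKM in wild-type and 910.3, 953 and 998 FPKM in mutant pools. Over all 34 members the summed FPKM was 3112, 3241 and 3057 FPKM in wild-type and 3448, 3675 and 4095 FPKM in mutant pools, so each mutant pool was above each wild-type pool.

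Among the hexokinases, which trap glucose in the cell as glucose-6-phosphate, *hk2* is the form typical of muscle in mammals. Its level was 2.79, 2.81 and 4.58 FPKM in wild-type and 7.25, 5.94 and 10.7 FPKM in mutant pools, and wild-type pool 2 was nearest to the mutants. No pools of the 2 genotypes overlapped (log2 fold change 1.02, 95% interval 0.49 to 1.54, limma adjusted p = 0.0820). It did not pass with all pools, and of the single pools dropped in turn it passed only without wild-type pool 2 (limma adjusted p = 0.0445). The more abundant *hk1*, the form typical of brain in mammals, was at 14.7, 11.5 and 19.3 FPKM in wild-type and 19.9, 19.8 and 21 FPKM in mutant pools and did not pass (log2 fold change 0.42, 95% interval 0.05 to 0.80, limma adjusted p = 0.245). Its mutant pools were above its wild-type pools, with wild-type pool 2 close to them. The share of *hk2* in the summed transcripts of *hk1*, *hk2* and *gck* was 15.5%, 19.7% and 16.7% in wild-type and 25.7%, 21.7% and 31.2% in mutant pools. Glucokinase *gck*, the low-affinity form of liver and pancreatic beta cells, was at 0.516, 0 and 3.57 FPKM in wild-type and 1.03, 1.60 and 2.51 FPKM in mutant pools, so the genotypes overlapped and wild-type pool 2 had the highest value. Glucose-6-phosphate isomerase, the next enzyme, was carried mainly by *gpia*, at 43.1, 45.3 and 46.4 FPKM in wild-type and 44.9, 53.5 and 57.1 FPKM in mutant pools. Its copy *gpib* was at 23.9, 25 and 23.5 FPKM in wild-type and 23.3, 24.2 and 33.1 FPKM in mutant pools. The genotypes overlapped for both, and neither passed (limma adjusted p = 0.383 and 0.673).

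Phosphofructokinase adds the phosphate that commits sugar to glycolysis, and the subunits of muscle type had the largest log2 fold changes of its 6 genes. The transcript of *pfkma*, on chromosome 23 from 27553785 to 27571667 of GRCz11, was at 16.2, 18.4 and 17.7 FPKM in wild-type and 25.2, 33.6 and 45.3 FPKM in mutant pools. All mutant pools were above all wild-type pools by a wide gap, and the mutant pools themselves spread far apart. With a mean fold of 1.99 the gene did not pass (log2 fold change 0.92, 95% interval 0.50 to 1.33, limma adjusted p = 0.0596). Of the single pools dropped in turn it passed only without mutant pool 0 (limma adjusted p = 0.0358). Like *eno1a* and *eno3*, it lies on chromosome 23, which also carries *tafazzin* from 4915965 to 4925666. The paralog *pfkmb* was much lower, at 3.05, 3.07 and 2.96 FPKM in wild-type and 5.46, 5.55 and 5.58 FPKM in mutant pools, with little spread within either genotype, and did not pass (log2 fold change 0.70, 95% interval 0.40 to 1.00, limma adjusted p = 0.0561).

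Subunits of liver and brain type showed smaller differences. The liver-type *pfkla* was at 19.2, 19.1 and 22.5 FPKM in wild-type and 18.9, 20.5 and 19.6 FPKM in mutant pools (log2 fold change -0.04, 95% interval -0.27 to 0.19, limma adjusted p = 0.884). Its copy *pfklb* was at 11.7, 12 and 13.4 FPKM in wild-type and 13.6, 13.4 and 16.9 FPKM in mutant pools (log2 fold change 0.22, 95% interval -0.06 to 0.50, limma adjusted p = 0.419). For both the genotypes overlapped. For *pfkpa*, the most abundant subunit in wild-type larvae, the level was 27.4, 20.7 and 23.5 FPKM in wild-type and 25.3, 23.9 and 23.9 FPKM in mutant pools, which also overlapped (log2 fold change 0.04, 95% interval -0.22 to 0.29, limma adjusted p = 0.909). For *pfkpb* it was 5.36, 5.73 and 8.41 FPKM in wild-type and 8.29, 10.7 and 9.92 FPKM in mutant pools, where 1 mutant pool lay just below wild-type pool 2 (log2 fold change 0.52, 95% interval 0.12 to 0.92, limma adjusted p = 0.194). The share of *pfkma* in the summed phosphofructokinase transcripts was 19.5%, 23.3% and 20.01% in wild-type and 26%, 31.2% and 37.4% in mutant pools, so it exceeded that of *pfkpa* in mutant pools 1 and 2 and was nearly equal to it in mutant pool 0.

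**Figure D2:**
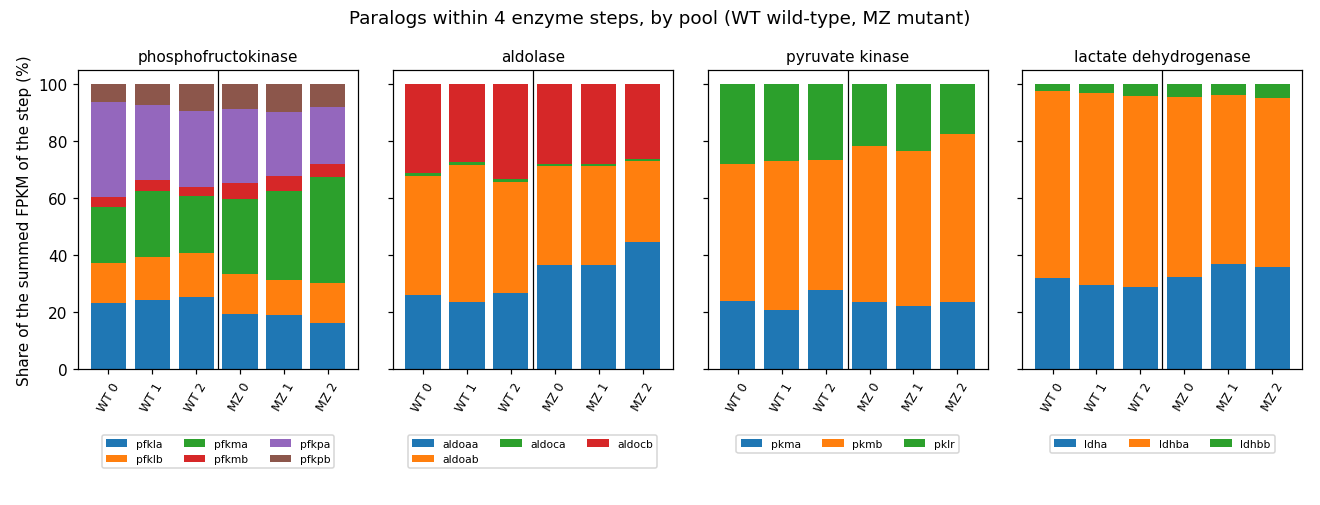
Share of each paralog in the summed FPKM of the listed members at 4 enzyme steps (percent, stacked from 0), 1 bar per pool, wild-type (WT) pools left of the line and MZ *tafazzin* mutant pools right of it. The share of *aldoaa* is 23.6% to 26.8% in wild-type and 36.6% to 44.6% in mutant pools, and that of *pfkma* 19.5% to 23.3% and 26% to 37.4%.

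Aldolase cleaves fructose-1,6-bisphosphate into a pair of trioses, and 1 of its 4 genes in the list rose. The transcript of *aldoaa*, on chromosome 3 from 39566922 to 39577052 of GRCz11, was at 148, 141 and 162 FPKM in wild-type and 256, 283 and 417 FPKM in mutant pools. No mutant pool overlapped the wild-type pools, and mutant pool 2 was the highest. The gene rose 2.11-fold (log2 fold change 1.04 ± 0.17 SE, limma adjusted p = 0.0320), and its log2 fold change stayed at 0.83 to 1.19 when single pools were dropped. It no longer passed when wild-type pool 0, wild-type pool 1 or mutant pool 1 was dropped (limma adjusted p = 0.113, 0.116 and 0.0801). Its duplicate *aldoab*, the other fish copy of aldolase A, was at 235, 289 and 236 FPKM in wild-type and 241, 267 and 264 FPKM in mutant pools. Those values overlapped completely, with the highest in wild-type pool 1 (log2 fold change 0.03, 95% interval -0.20 to 0.26, limma adjusted p = 0.920). The more abundant of the pair was *aldoab* in every wild-type pool and *aldoaa* in every mutant pool. The log2 ratio of *aldoaa* to *aldoab* was -0.66, -1.03 and -0.54 in wild-type and 0.08, 0.08 and 0.65 in mutant pools, a shift of 1.02 (p = 0.1 in a two-sided exact permutation test, adjusted to 0.244 over 22 pairs).

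The aldolase C genes, of brain type in mammals, did not pass. The abundant copy *aldocb* was at 176, 165 and 201 FPKM in wild-type and 197, 217 and 245 FPKM in mutant pools, with mutant pool 0 below wild-type pool 2 (log2 fold change 0.28, 95% interval 0.03 to 0.53, limma adjusted p = 0.253), and *aldoca* at 6.20, 4.93 and 7.68 FPKM in wild-type and 5.03, 5.38 and 8.09 FPKM in mutant pools, with no order between genotypes.

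The middle of the pathway showed small differences. Triosephosphate isomerase, which interconverts the trioses, was carried mainly by *tpi1b* at 145, 146 and 134 FPKM in wild-type and 133, 143 and 148 FPKM in mutant pools, and the confidence interval of its log2 fold change was -0.19 to 0.18. The lesser copy *tpi1a* was at 9.94, 9.68 and 14.1 FPKM in wild-type and 11.9, 9.07 and 13.2 FPKM in mutant pools, likewise with overlap. The mean of *gapdh* was 588 ± 81.7 FPKM in wild-type and 555 ± 17.4 FPKM in mutants (SD, n = 3 pools each; log2 fold change -0.07, 95% interval -0.33 to 0.18, limma adjusted p = 0.799), with its lowest value in wild-type pool 2, and its sign turned under quantile normalization (log2 fold change 0.06). The paralog *gapdhs* was at 299, 305 and 357 FPKM in wild-type and 375, 384 and 439.8 FPKM in mutant pools, each mutant pool above each wild-type pool (log2 fold change 0.32, 95% interval 0.08 to 0.55, limma adjusted p = 0.181). Phosphoglycerate kinase *pgk1*, which makes the first ATP of the pathway, was at 120.0, 121 and 114 FPKM in wild-type and 127, 129.7 and 144 FPKM in mutant pools, again without overlap but by a small margin (log2 fold change 0.17, 95% interval -0.01 to 0.35, limma adjusted p = 0.340).

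Phosphoglycerate mutase moves the phosphate before the enolase step. Its muscle-type gene *pgam2* was at 55.6, 63.7 and 48.7 FPKM in wild-type and 77.7, 73.6 and 113 FPKM in mutant pools, where mutant pool 2 stood well above the other mutant pools and no genotype overlap was seen (log2 fold change 0.63, 95% interval 0.25 to 1.00, limma adjusted p = 0.117). The broadly expressed copies *pgam1a* and *pgam1b* were at 51 ± 4.91 FPKM in wild-type and 59.24 ± 0.652 FPKM in mutants (SD, n = 3 pools each) and at 31.2 ± 3.73 FPKM in wild-type and 34.5 ± 1.32 FPKM in mutants, with limma adjusted p of 0.281 and 0.525. In every mutant pool *pgam2* was the most abundant mutase, as it was in wild-type pools 1 and 2 but not in wild-type pool 0, where *pgam1a* was at 56.1 FPKM and *pgam2* at 55.6 FPKM.

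Enolase makes phosphoenolpyruvate, and at this step the fold change of the muscle-type gene was near 0. The muscle form *eno3* was at 229.7, 239 and 201 FPKM in wild-type and 209, 222 and 231 FPKM in mutant pools, with complete overlap (log2 fold change -0.02, 95% interval -0.23 to 0.19, limma adjusted p = 0.948). The neuronal form *eno2* was at 31.1, 37.2 and 35.4 FPKM in wild-type and 38.6, 43.4 and 49.3 FPKM in mutant pools, all mutant pools being above all wild-type pools (log2 fold change 0.33, 95% interval 0.07 to 0.58, limma adjusted p = 0.202). The broad form *eno1a* was at 138, 141 and 141 FPKM in wild-type and 142, 160.1 and 149.9 FPKM in mutant pools, a small difference without overlap (log2 fold change 0.10, 95% interval -0.08 to 0.28, limma adjusted p = 0.559), and *eno1b* was at 16.6, 16 and 19.3 FPKM in wild-type and 21, 22.2 and 21.2 FPKM in mutant pools, also without overlap (log2 fold change 0.30, 95% interval 0.07 to 0.53, limma adjusted p = 0.195). The gene *eno4*, which overlaps *shtn1*, was at 0.291, 0.579 and 0.549 FPKM in wild-type and 1.22, 0.765 and 0.591 FPKM in mutant pools. These levels are near the filter on low values (log2 fold change 0.33, 95% interval -0.20 to 0.85, limma adjusted p = 0.522). The wild-type mean of 0.473 FPKM was below that filter, which *eno4* passed only through its mutant pools.

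Pyruvate kinase makes the second ATP of the pathway, and 1 of its 3 genes rose. That gene, *pkmb*, on chromosome 25 from 29159816 to 29196072 of GRCz11, was at 176, 201 and 165 FPKM in wild-type and 252, 278 and 338 FPKM in mutant pools. Mutant and wild-type pools did not overlap, and mutant pool 2 was again the highest. It rose 1.60-fold (log2 fold change 0.67 ± 0.12 SE, limma adjusted p = 0.0497), just past the threshold. Dropping single pools gave log2 fold changes of 0.55 to 0.76, and the gene then passed in no case (limma adjusted p = 0.0633 to 0.162). The duplicate *pkma* was at 88.1, 80.5 and 101 FPKM in wild-type and 109.5, 115 and 136 FPKM in mutant pools, with no overlap either, and did not pass (log2 fold change 0.42, 95% interval 0.16 to 0.67, limma adjusted p = 0.125). The ratio of *pkma* to *pkmb* overlapped between genotypes, with a log2 shift of -0.25 (two-sided exact permutation p = 0.4). The gene of liver and red blood cell type in mammals, *pklr*, was at 104, 104 and 97.2 FPKM in wild-type and 101, 120.2 and 99.5 FPKM in mutant pools and overlapped (log2 fold change 0.07, 95% interval -0.14 to 0.28, limma adjusted p = 0.763). The share of *pklr* in the pyruvate kinase transcripts was 28.2%, 26.9% and 26.8% in wild-type and 21.9%, 23.4% and 17.4% in mutant pools.

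Lactate dehydrogenase closes the pathway, with A subunits typical of muscle and B subunits typical of heart and brain. The transcript of *ldha*, on chromosome 25 from 25123384 to 25131749 of GRCz11, was at 85.8, 81.4 and 75.4 FPKM in wild-type and 106, 120.4 and 136 FPKM in mutant pools. The genotypes were well apart, and the gene missed the threshold by a small margin (log2 fold change 0.57, 95% interval 0.33 to 0.81, limma adjusted p = 0.0506). When the filter was set to 5 FPKM it passed (limma adjusted p = 0.0409), but it passed under no other setting tried. With single pools dropped the limma adjusted p was 0.0612 to 0.150. The more abundant *ldhba* was at 175, 185 and 176 FPKM in wild-type and 206, 194 and 225 FPKM in mutant pools, without overlap and with a smaller difference (log2 fold change 0.22, 95% interval 0.03 to 0.41, limma adjusted p = 0.238), and *ldhbb* was at 6.08, 8.51 and 11 FPKM in wild-type and 14.3, 12.5 and 19.1 FPKM in mutant pools, without overlap and with wild-type pool 2 nearest to the mutants (log2 fold change 0.79, 95% interval 0.31 to 1.27, limma adjusted p = 0.121). All 3 genes of this step had no overlap between genotypes, and the summed level of the step was 267, 275 and 262 FPKM in wild-type and 327, 327 and 381 FPKM in mutant pools.

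**Figure D3:**
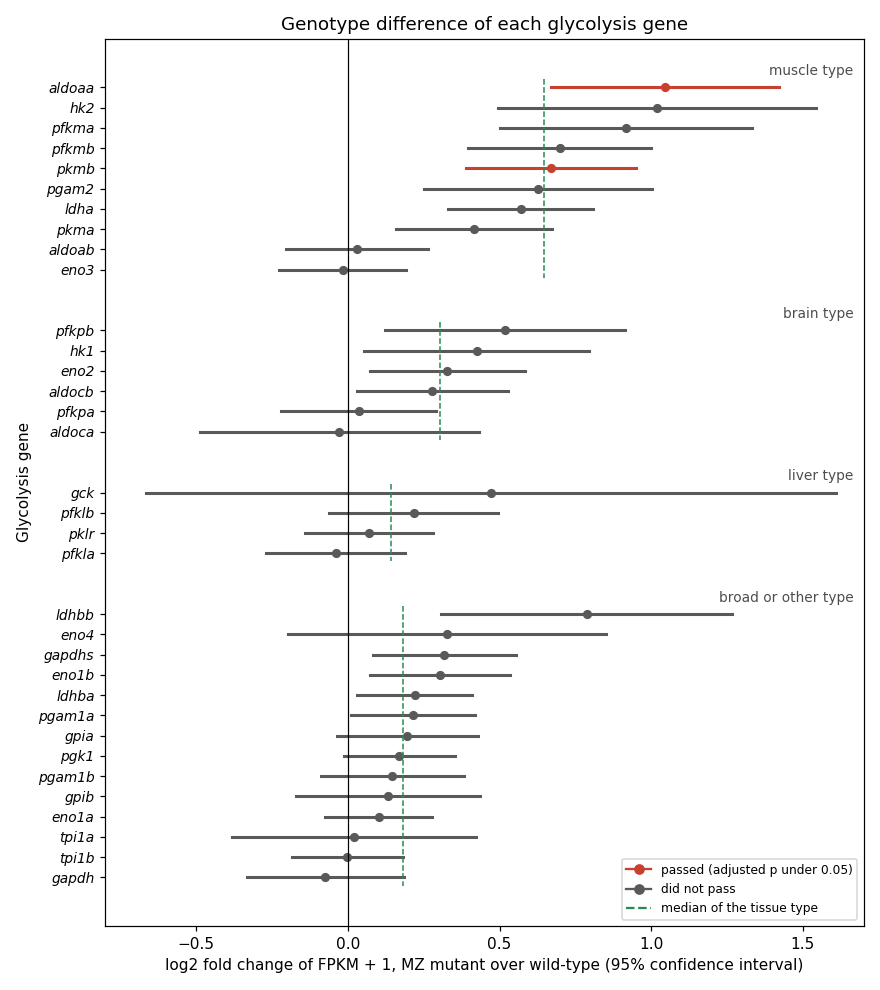
Log2 fold change of FPKM + 1 (MZ *tafazzin* mutant over wild-type) of each of the 34 genes with its 95% confidence interval from limma, grouped by the tissue type of the mammalian ortholog, with the median of each group as a dashed line and the genes that passed in red. The medians are 0.65 for muscle, 0.30 for brain, 0.14 for liver and 0.18 for broad or other type, and in the muscle group *aldoab* and *eno3* lie at 0.03 and -0.02.

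By tissue type, 2 of the 10 muscle-type genes rose and none of the 6 brain-type, 4 liver-type and 14 other genes passed, where 0.696% of all genes tested rose. In groups this small that share leaves less than 1 gene, so the absence of calls in the other types is no difference between types. Mutant pools lay above wild-type pools for 8 muscle-type, 2 brain-type, no liver-type and 8 other genes (*eno4* among the last), against 11.9% of all genes tested. Without wild-type pool 2 these counts were 8 muscle-type, 4 brain-type, 2 liver-type and 8 other genes (20.7% of all genes tested). Without mutant pool 0 the brain-type count was also 4 (18.1%), and without mutant pool 1 the liver-type count was 1 (15.6%). The count of other genes was 9 without either of these mutant pools. Without wild-type pool 1 there were 9 muscle-type and 9 other genes (16.6%), and without wild-type pool 0 there were 3 brain-type genes (14.8%). No difference between tissue types was tested. The median log2 fold change was 0.65 for muscle, 0.30 for brain, 0.14 for liver and 0.18 for other types. Across the alternatives of processing and each pool left out, it was 0.52 to 0.71 for muscle, 0.22 to 0.38 for brain, 0.05 to 0.19 for liver and 0.11 to 0.21 for other types. Muscle-type genes made up 33.4%, 34.6% and 33.2% of the members' summed FPKM in wild-type and 37.4%, 38.2% and 41.4% in mutant pools. The 8 muscle-type genes that did not overlap were *hk2*, *pfkma*, *pfkmb*, *aldoaa*, *pgam2*, *pkma*, *pkmb* and *ldha*, and the remaining 2, *aldoab* and *eno3*, were the first and the second most abundant of the 10 in wild-type larvae.

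Markers of the tissues themselves were set beside these groups. Of all genes tested 0.696% rose and 0.215% fell, and 11.9% lay wholly higher and 10.5% wholly lower in mutant pools. Of 22 fast skeletal muscle markers tested, which include myosins, actins, troponins and creatine kinases, none rose and 1 fell, the actin gene *acta1a*, and their median log2 fold change was -0.11. Their summed FPKM ranged from 32775 to 41337 in wild-type and from 33655 to 34760 in mutant pools, so the ranges overlapped. Of 7 slow muscle markers tested none passed (median log2 fold change 0.03, summed FPKM 436 to 520 in wild-type and 461 to 534 in mutant pools). Of 14 neuronal markers none passed either (median log2 fold change 0.01, 1083 to 1173 and 1117 to 1179 FPKM). Of 8 glial markers none passed (median log2 fold change 0.12), and they summed to 586 to 689 FPKM in wild-type and to 708 to 913 FPKM in mutant pools. Without *glula*, a glutamine synthetase gene at 178, 174 and 189 FPKM in wild-type and 255, 279 and 409 FPKM in mutant pools, the glial sums overlapped, at 412 to 499.7 and 453 to 504 FPKM. Of 19 photoreceptor markers 1 fell, *pde6h*, a phosphodiesterase subunit of cones (median log2 fold change 0.23, 3435 to 5683 and 5172 to 5805 FPKM). The part of glia and photoreceptors in the brain-type values was not tested. Of 17 hepatocyte markers none passed (median log2 fold change -0.06, 5092 to 5897 and 5337 to 5667 FPKM), while 5 lay wholly higher and 2 wholly lower. Of the 22 fast muscle markers 4 lay wholly lower and none wholly higher, and 17 had a negative log2 fold change. Of the photoreceptor markers 3 lay wholly higher and 3 wholly lower. Neuronal and glial markers had 1 in each direction, and slow muscle markers none. The exocrine pancreas and epidermal markers shifted without overlap of their sums. Of 12 exocrine pancreas markers, which are digestive enzymes, 3 fell (*cel.1*, *ela3l* and *amy2a*) and 11 lay wholly lower in mutants (median log2 fold change -0.52, 8874 to 9859 and 6593 to 7182 FPKM). Of 12 epidermal markers 1 fell, the keratin gene *cyt1*, 5 lay wholly lower and 3 wholly higher (median log2 fold change -0.51, 5747 to 7677 and 3975 to 5156 FPKM). Of 8 neutrophil markers 1 rose, the metalloproteinase gene *mmp9*, 3 lay wholly higher and 1 wholly lower (median log2 fold change 0.49). The other 4, *mpx*, *lyz*, *npsn* and *lect2l*, overlapped between genotypes and did not pass (log2 fold change 0.19, -0.04, 0.53 and 0.46). The 1 wholly lower was *cpa5*, also counted among the pancreas markers. It was at 941, 942 and 875 FPKM in wild-type and 741, 760 and 731 FPKM in mutant pools. The highest value of any other marker in this list was 64.2 FPKM. The neutrophil sum (968 to 1011 and 827 to 878 FPKM) therefore follows *cpa5* and not the list. The part of these shifts in the values of the glycolysis genes was not tested.

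**Figure D4:**
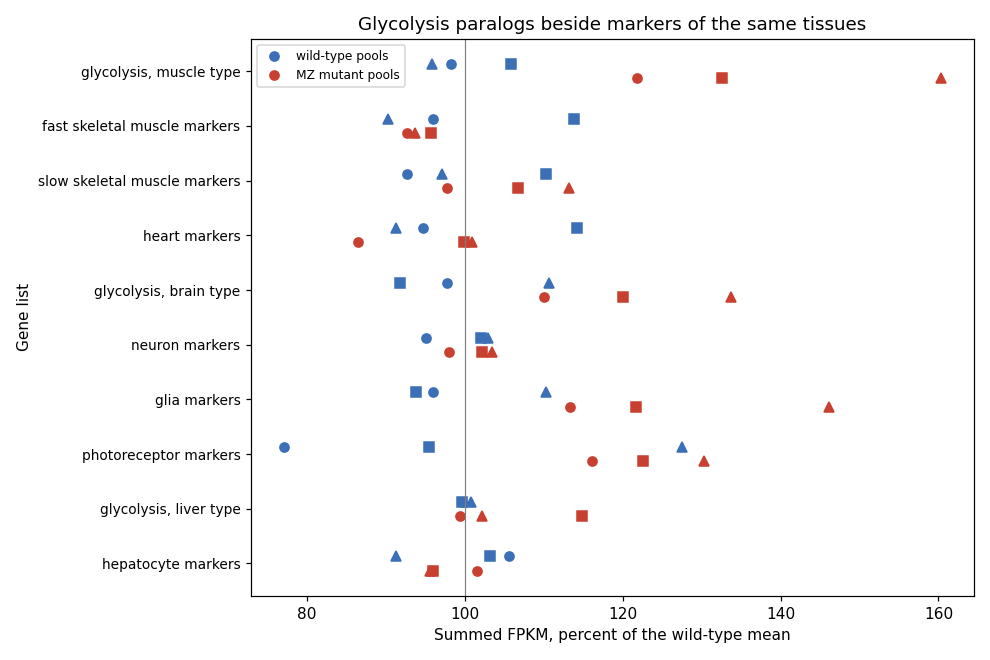
Summed FPKM of the muscle-, brain- and liver-type glycolysis genes and of marker genes of the same tissues in each pool, as percent of the wild-type mean of each list, with wild-type pools in blue, MZ *tafazzin* mutant pools in red, and circles, squares and triangles for pools 0, 1 and 2. Muscle-type glycolysis genes sum to 1015 to 1121 FPKM in wild-type and 1289 to 1697 FPKM in mutant pools, whereas the fast muscle markers overlap.

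Ratios of paralogs within a pool, in which the total of the pool cancels but for the added 1 FPKM, were compared for 22 pairs, 12 of 1 enzyme subfamily and 10 of different tissue types. Genotypes did not overlap for 9 ratios, each with a two-sided exact permutation p of 0.1. That is the smallest value possible with 3 pools against 3, and it became 0.244 when adjusted over the 22 pairs, so none could pass. No share over other pairs of genes was computed to set beside the 9. Genes such as *pfkma* belong to more than 1 pair, so the ratios are not independent of each other. The largest shift was that of *aldoaa* over *aldoab*. Next came *pfkma* over the liver-type *pfkla*, with a log2 ratio of -0.24, -0.05 and -0.33 in wild-type and 0.40, 0.68 and 1.17 in mutant pools (shift 0.96), and *pfkma* over *pfkpa*, with -0.73, -0.16 and -0.39 in wild-type and -0.01, 0.47 and 0.90 in mutant pools (shift 0.88). The muscle-type gene was the less abundant of both pairs in every wild-type pool. It exceeded *pfkla* in every mutant pool and *pfkpa* in mutant pools 1 and 2. The ratio *hk2* to *hk1* shifted by 0.59 and *ldha* to *ldhba* by 0.35, again toward the muscle-type gene. The enolase pair *eno3* to *eno2* shifted the other way, by -0.35, and so did 3 pairs of copies, *ldhba* to *ldhbb* by -0.57, *pfkla* to *pfklb* by -0.26 and *eno1a* to *eno1b* by -0.20, each toward the less abundant copy. For the other 13 pairs the genotypes overlapped. They included *pkma* to *pkmb*, *pgam1a* to *pgam1b*, *pfkma* to *pfkmb* and, of different tissue types, *pgam2* to *pgam1a*.

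**Figure D5:**
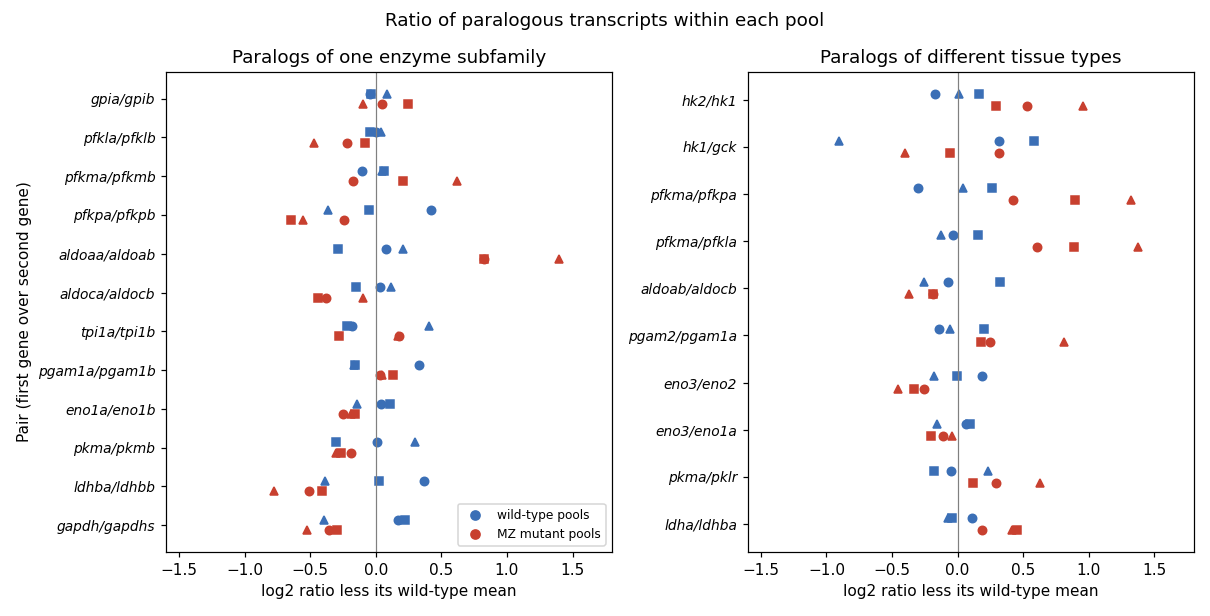
Log2 ratio of FPKM + 1 of 2 paralogs within each pool, less the wild-type mean of that ratio, for 12 pairs of 1 enzyme subfamily (left) and 10 pairs of different tissue types (right), with wild-type pools in blue, MZ *tafazzin* mutant pools in red, and circles, squares and triangles for pools 0, 1 and 2. The ratio *aldoaa*/*aldoab* is shifted by 1.02 and *pfkma*/*pfkla* by 0.96, while *tpi1a*/*tpi1b* is shifted by 0.02 with overlap.

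Mutant pool 2 held the highest mutant value for 23 of the 34 members and mutant pool 0 the lowest for 22, where these pools held them for 35.8% and 39.4% of all genes tested. Among the wild-type pools, pool 1 was highest for 16 members, pool 2 for 15 and pool 0 for 3 (35.6%, 38.8% and 25.6% of all genes tested). The lowest wild-type value was in pool 0 for 13 members, in pool 1 for 10 and in pool 2 for 11 (39.3%, 28% and 32.7% of all genes tested). By step, the summed FPKM of the listed members was without overlap between genotypes for phosphofructokinase (1.299 times the wild-type mean), aldolase (1.36), phosphoglycerate kinase (1.13), phosphoglycerate mutase (1.32), pyruvate kinase (1.39) and lactate dehydrogenase (1.29). It overlapped for hexokinase (1.504 times), glucose-6-phosphate isomerase (1.14), triosephosphate isomerase (1.00), GAPDH (1.05) and enolase (1.05). Hexokinase and aldolase genes outside the list are not in these sums, so the sums are not totals of those enzymes. No share of such sums without overlap was computed over other genes.

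Genes that feed or drain the pathway were read from a pair of further lists. Of 6 genes of lactate and pyruvate export tested 1 rose (0.696% of all genes tested), *slc16a3*, whose product in mammals is the monocarboxylate transporter that releases lactate from glycolytic muscle. It was at 8.32, 7.50 and 9.40 FPKM in wild-type and 15.1, 16.8 and 20.3 FPKM in mutant pools, without overlap (log2 fold change 0.96 ± 0.14 SE, limma adjusted p = 0.0233). It passed without mutant pool 0 or wild-type pool 2 and missed the threshold without any 1 other pool (limma adjusted p = 0.0746 to 0.088). Basigin *bsg*, the chaperone of these transporters, was at 146, 162 and 152 FPKM in wild-type and 166, 166 and 199 FPKM in mutant pools and did not pass (log2 fold change 0.20, 95% interval -0.01 to 0.42, limma adjusted p = 0.333). Of 15 regulators and side reactions tested none passed by limma (3 higher and none lower at an unadjusted p under 0.05, against 9.88% and 6.4% of all genes tested). The smallest p values were those of *g6pca.1*, a glucose-6-phosphatase that runs against hexokinase, at 9.43, 8.45 and 15.9 FPKM in wild-type and 19.1, 24.7 and 29.6 FPKM in mutant pools (log2 fold change 1.08, 95% interval 0.56 to 1.60, limma adjusted p = 0.0673), and of *pfkfb3*, a bifunctional enzyme whose product activates phosphofructokinase, at 9.21, 11.5 and 12.2 FPKM in wild-type and 14.6, 20.5 and 28.5 FPKM in mutant pools (log2 fold change 0.85, 95% interval 0.36 to 1.34, limma adjusted p = 0.104). For both, every mutant pool was above every wild-type pool. Of the single pools dropped in turn, *g6pca.1* passed only without wild-type pool 2 (limma adjusted p = 0.0173). With all pools, *g6pca.1* and *pfkfb3* passed only with a block on the column number (limma adjusted p = 0.0246 and 0.0418).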

How the data were processed

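RNA-seq libraries from 3 wild-type and 3 MZ *tafazzin* mutant pools of 25 larvae at 5 dpf were used. Reads were trimmed (Trim Galore 0.4.2), mapped to GRCz11 (STAR 2.5.3) and summarised (Cufflinks 2.2.1) by the authors, who deposited FPKM per gene and pool, per the labels and methods. How Cuffdiff scaled the libraries is not given. Further deposited columns hold the Cuffdiff comparison of the authors (fold changes, p- and q-values) and were not used. The columns are named by genotype and number (0 to 2), without a link to single labelled samples. The labels do not say whether pools had separate parents, so p-values measure the spread between these pools. Identical values in a pair of pools made up at most 0.0603% of well-expressed genes.

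Genes that averaged 0.5 FPKM or more were fitted as log2(FPKM + 1) in R 4.3.3 with limma 3.58.1, with a mean-variance trend. The fit was tested on simulated data, with changes given to genes of at least 5 FPKM. It recovered 12.5% of log2 changes of 0.5, 75% of those of 1 and 95% of those of 2. A gene that did not pass can therefore still differ. Other settings tried were filters of 0 and 5 FPKM, a pseudocount of 0.1, median and quantile scaling, a fit without trend, a block on the column number, and each pool dropped (without genes at 0 in all remaining pools). Members, lists, pairs and tissue types were chosen with earlier results of these data known. By the rule for named genes, values per pool are given for members that passed, their paralog partners and the most abundant member of each step, and from further lists for genes that passed or else the 2 of smallest p. Values per pool of other members and of *bsg*, the names of markers that passed, *cpa5* with its values, and *glula* with the glial sum without it, were added after they were seen. So were the log2 fold changes of the neutrophil markers that overlapped. A further gene of these lists is not reported here. Of the 19 symbols of regulators 16 were matched and of the 9 of export 6. Coordinates are those of the deposited table. Python 3.11.15, pandas 2.3.3 and matplotlib 3.10.9 were used.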

Additional observations from a re-analysis of the deposited data

How the results depend on the processing

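For all genes tested, 63 were higher and 24 lower with no filter, 24 and 14 with no trend, and 273 and 80 with the column number as a replicate block, and 22 to 394 were higher and 10 to 126 lower with any 1 pool left out, from 22 without wild-type pool 1 to 394 without wild-type pool 2, against 152 and 47. With a filter of 5 FPKM, which leaves fewer genes to test, 204 were higher and 65 lower. With a pseudocount of 0.1 the counts were 133 and 41, and with quantile normalization 151 and 57. Of the glycolysis genes 1 was higher with a pseudocount of 0.1 or quantile normalization, none with no filter or no trend, 4 with a filter of 5 FPKM (*pfkma*, *aldoaa*, *pkmb* and *ldha*), 3 with the replicate block (*hk2*, *pfkma* and *aldoaa*), and 0 to 2 with any 1 pool left out, none being lower in any of these. Of the neighbouring genes none was higher with no trend, 3 with the replicate block, and 0 to 3 with any 1 pool left out. Equal column numbers did not deviate together over all genes (correlations of 0.02, 0.00 and 0.05). Whether pools of equal number share anything more than the number is not stated. With 1 pool left out, 10 to 15 of the 22 paralog ratios did not overlap. Fewer pools overlap less often in general. Of all genes tested, 14.8% to 20.7% then lay wholly higher and 14.3% to 17.5% wholly lower, against 11.9% and 10.5% with all pools. No such share was computed for ratios, so the count with 1 pool left out does not show stability.

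Log2 fold changes near 0 changed sign, and the cause was not tested. Under quantile normalization *pfkpa* was at -0.00845, *tpi1a* at -0.0051, *gapdh* at 0.0583 and *pklr* at -0.0026. Dropping single pools gave -0.0225 to 0.221 for *gpib*, -0.0794 to 0.0342 for *pfkla*, -0.0573 to 0.137 for *pfkpa*, -0.0214 to 0.128 for *aldoab*, -0.212 to 0.109 for *aldoca*, -0.0866 to 0.181 for *tpi1a*, -0.0430 to 0.0396 for *tpi1b*, -0.191 to 0.00597 for *gapdh*, -0.0905 to 0.0334 for *eno3* and -0.0166 to 0.119 for *pklr*. The shift of the log2 ratio was then -0.0267 to 0.147 for *gpia* to *gpib*, -0.0877 to 0.224 for *tpi1a* to *tpi1b*, -0.0154 to 0.232 for *pgam1a* to *pgam1b* and -0.499 to 0.247 for *hk1* to *gck*. For *tafazzin* the log2 fold change was -1.19 to -0.91 (limma adjusted p = 0.0256 without wild-type pool 2 and 0.0578 to 0.163 without any 1 other pool). Read numbers per pool are not stated, which limits *gck*, *eno4*, *hk2* and *pfkmb* most.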
